A study of Homo sapiens with 6 samples.

Results

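The mRNA levels of 10 cytosolic and mitochondrial heat shock chaperones were examined in Hep G2, a human liver tumor cell line. The genes were HSPA8, HSPA1A, HSPA1B, HSPH1, DNAJB1, BAG3, HSP90AA1, HSP90AB1, HSPB1 and HSPD1, taken by symbol from a table of 23524 genes. All 10 averaged 0.1 FPKM or more across the libraries, the minimum for testing, which 17222 genes reached. FPKM, the number of fragments divided by the length of the transcript and the depth of the library, already accounts for length, so levels can be set side by side between genes. The control group was Hep G2 with the empty lentiviral vector, and the EFTUD2 group was Hep G2 with a lentivirus that carries EFTUD2, a GTPase of the U5 particle of the spliceosome. Both were stable lines obtained by puromycin selection, and 3 libraries of poly-A selected RNA, numbered 1 to 3, were measured per group. The labels do not say that the libraries of a group came from separate cultures, so p-values measure only the spread between these libraries, which may be technical. The sources used here do not say whether each line was a pool of cells or a single clone.

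Molecular chaperones bind unfolded stretches of other proteins and keep them from clumping while they fold. HSP70 proteins do so in cycles of ATP binding and hydrolysis, which J-domain partners such as DNAJB1 start and exchange factors such as HSPH1 and BAG3 end. HSP90 proteins take over near-native clients such as kinases and steroid receptors, HSPB1 is a small heat shock protein that holds unfolded proteins without ATP, and HSPD1 forms the folding chamber of the mitochondrial matrix with its lid HSPE1. Under heat or other proteotoxic stress the transcription factor HSF1 binds heat shock elements, inverted repeats of the unit GAA, and raises the transcription of many of these genes. HSPA8, HSP90AB1 and HSPD1 are also made in large amounts in unstressed cells, whereas HSPA1A and HSPA1B are the classical stress-induced members.

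Heat shock elements were searched in RefSeq promoter windows of build GRCh38.p14, which run from 250 bases before to 50 bases after each start site. The 10 genes had 16 such windows. An element of 2 inverted units, spelled GAANNTTC or TTCNNGAA and read on both strands, was found for 8 of the 10 genes, beside 16.2% of 27305 genes with a window, and in 13.5% of all 35116 windows. An element of 3 units, TTCNNGAANNTTC or GAANNTTCNNGAA, contains both of the shorter ones. It was found for HSPA8, HSP90AA1, HSP90AB1 and HSPD1, 4 of the 10 genes, beside 0.608% of all genes and 0.49% of all windows. HSPH1 and BAG3 held neither spelling in these windows. The sequence TATAAA was found on the gene strand for HSPA1A and HSPA1B, 2 of the 10 genes, beside 8.99% of all genes. A match describes the letters only, and binding was not measured here. The 4 promoters with 3-unit elements are shown because the genes differed in their library pattern although they share the element, and those of HSPA1A and HSPA1B because the pair is nearly identical. The stretches are chr11:123062159-123062386 on the minus strand for HSPA8, chr14:102087100-102087152 on the minus strand for HSP90AA1, chr6:44247758-44247863 on the plus strand for HSP90AB1, chr2:197500048-197500090 on the minus strand for HSPD1, chr6:31815417-31815464 on the plus strand for HSPA1A and chr6:31827613-31827660 on the plus strand for HSPA1B. Capitals mark the units of the matches, and each sequence reads 5′ to 3′ on the gene strand.
HSPA8: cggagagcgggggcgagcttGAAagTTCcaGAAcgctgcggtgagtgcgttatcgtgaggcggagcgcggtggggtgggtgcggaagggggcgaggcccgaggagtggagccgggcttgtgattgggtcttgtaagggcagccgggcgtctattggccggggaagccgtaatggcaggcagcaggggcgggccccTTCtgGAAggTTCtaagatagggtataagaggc
HSP90AA1: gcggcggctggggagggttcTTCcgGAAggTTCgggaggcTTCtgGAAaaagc
HSP90AB1: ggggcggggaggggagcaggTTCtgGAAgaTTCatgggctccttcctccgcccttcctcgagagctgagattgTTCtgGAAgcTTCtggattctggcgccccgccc
HSPD1: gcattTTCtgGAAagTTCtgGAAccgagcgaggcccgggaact
HSPA1A: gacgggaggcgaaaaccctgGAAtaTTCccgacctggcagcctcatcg
HSPA1B: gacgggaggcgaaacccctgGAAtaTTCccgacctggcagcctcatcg

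EFTUD2 stood at 47.3 ± 6.65 FPKM (SD, n = 3) in control libraries and at 106 ± 3.3 FPKM (SD, n = 3) in EFTUD2 libraries, a ratio of 2.25. Every EFTUD2 library was above every control, for which an exact two-sided permutation test gave p = 0.1, the smallest that 3 libraries against 3 allow. EFTUD2 replicate 3 stood apart from its group. Its log2 values differed from those of EFTUD2 replicates 1 and 2 with SDs over genes of 0.508 and 0.596, against 0.231 between those 2 and 0.213 to 0.363 among controls. In limma's comparison of EFTUD2 with control libraries on log2(FPKM + 1), 0 of the 17222 genes had an adjusted p under 0.05 and 2118 an unadjusted p under 0.05. The EFTUD2 gene itself had a log2 fold change of 1.16 in this comparison (SE 0.12, adjusted p = 0.13). The depth of the libraries is unknown, so no counting error can be given.

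None of the 10 chaperones differed between EFTUD2 and control libraries beyond the spread of the replicates. The most abundant were HSP90AB1, at 948 ± 154 FPKM in control and 938 ± 48 FPKM in EFTUD2 libraries (SD, n = 3 each), and HSPD1, at 701 ± 117 and 650 ± 41.5 FPKM. By mean FPKM over the 6 libraries, HSP90AB1 ranked 54 among the genes tested, HSPD1 88, HSPA8 121, HSP90AA1 145, HSPA1B 354, HSPB1 527, DNAJB1 580, HSPH1 1891, BAG3 4541 and HSPA1A 8222. In both groups the library ranges overlapped between HSPA8 and HSP90AA1 and between HSPB1 and DNAJB1, so the order of these neighbours was not separated by the spread. Those of HSP90AB1 and HSPD1, HSPD1 and HSPA8, and HSPA1B and HSPB1 overlapped in control but not in EFTUD2 libraries. Those of HSP90AA1 and HSPA1B, and of BAG3 and HSPA1A, overlapped in EFTUD2 but not in control libraries. The means of HSPA8, HSP90AA1 and HSPH1 were 0.711 to 0.733 times the control means in EFTUD2 libraries. Those of HSPA1A and HSPA1B were 1.34 and 1.25 times. Without a single EFTUD2 library, replicate 3, log2 fold changes went from -0.48 to -0.10 for HSPA8, from -0.48 to -0.17 for HSP90AA1 and from -0.51 to -0.18 for HSPH1. For HSPA1A they went from 0.26 to -0.18 and for HSPA1B from 0.32 to 0.06. Control replicate 2 was the highest library for HSPA8, HSP90AA1 and HSPH1 and also widened their gap. Of the 10 genes, 0 had an adjusted p under 0.05 (background 0% of the genes tested), 0 had an unadjusted p under 0.05 (background 12.3%) and 0 had groups that did not overlap (background 27.3%, made up of 7.92% higher and 19.4% lower with EFTUD2). With the libraries scaled to a common sum, the groups of 1 of the 10, BAG3, did not overlap. Their log2 fold changes were above 0 for 4 genes and below 0 for 6, with a median of -0.05, beside 62.7% of all genes tested below 0 and a median of -0.07 over them. Over the 12556 genes that averaged 1 FPKM or more, as all 10 did, these were 68.3% and -0.12. This balance depended on the scaling. With the median of ratios, 4 of the 10 genes and 48.9% of all genes were below 0, with medians of 0.07 and 0.01, and with quantiles the medians were -0.21 and -0.03. None was called in any of 16 other settings of the fit. In bulk RNA, fewer cells that express a gene and less of its RNA per cell cannot be told apart.

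**Figure D1:**
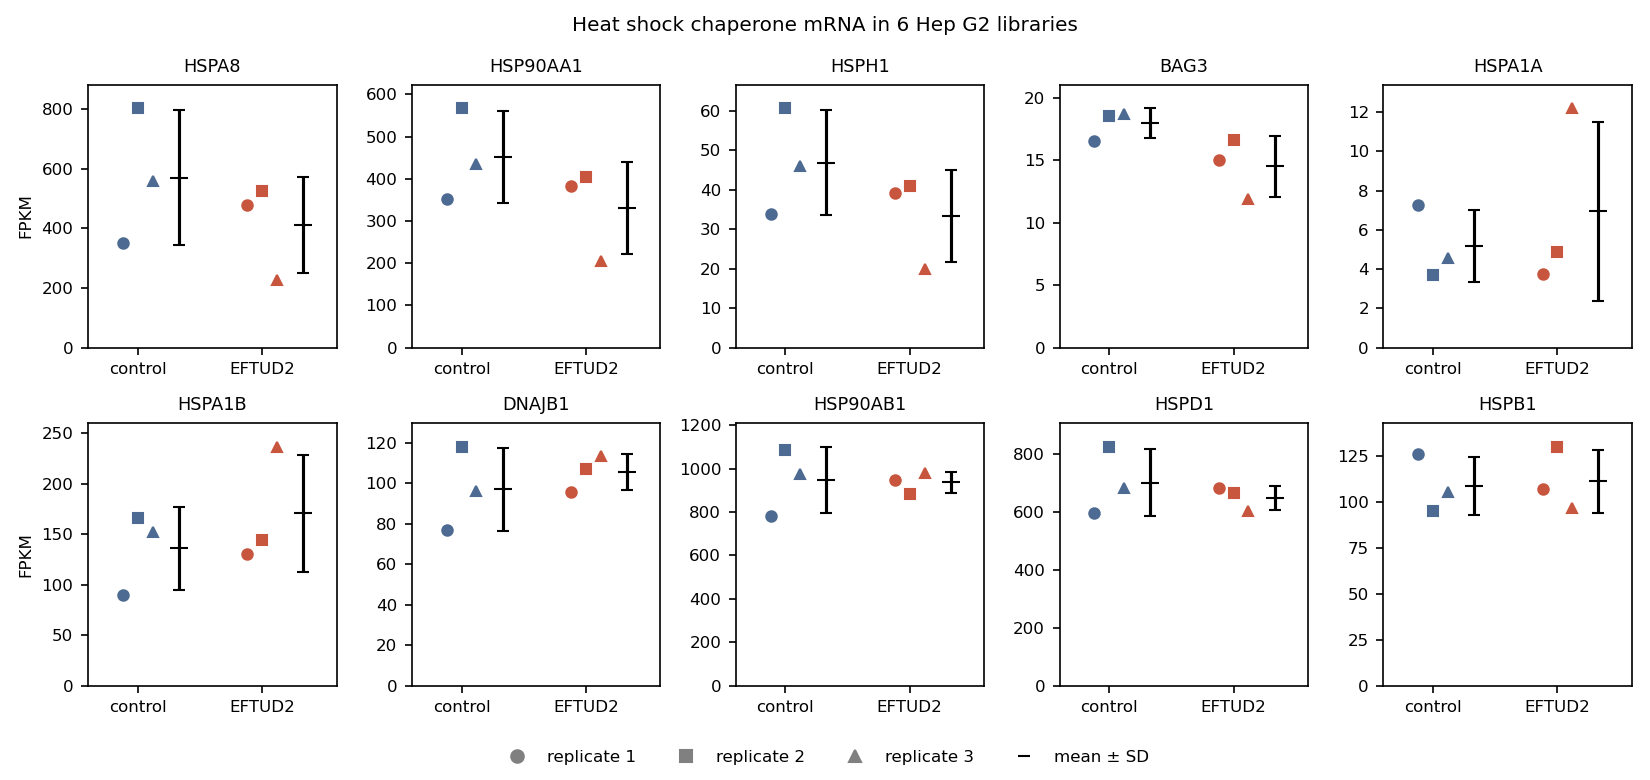
FPKM of the 10 heat shock chaperones (y axis, from 0, own scale per gene) in the 3 control and 3 EFTUD2 libraries (x axis), with the mean ± SD of each group beside its points. EFTUD2 replicate 3 (triangles, right) is the lowest library for HSPA8, HSP90AA1, HSPH1 and BAG3 and the highest for HSPA1A and HSPA1B, and the groups overlap in all 10 panels.

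HSPA8 (Entrez 3312, chromosome 11 from 123057489 to 123062462) encodes HSC70, the constitutive HSP70 of the cytosol. Its values were 349.46, 802.09 and 557.58 FPKM in control replicates 1 to 3 and 479.28, 524.55 and 227.86 FPKM in EFTUD2 replicates 1 to 3. Control replicate 2 was the highest library and EFTUD2 replicate 3 the lowest, and EFTUD2 replicates 1 and 2 lay inside the control range. The log2 fold change was -0.48 (SE 0.41, 95% interval -1.45 to 0.49, adjusted p = 0.57), and -0.10 without EFTUD2 replicate 3. HSPA8 varied 2.3-fold within each group. Of the 6401 genes that averaged 10 FPKM or more, 98.4% varied less among the controls, where the median was 1.2-fold, and 94.3% varied less among the EFTUD2 libraries, where the median was 1.34-fold.

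HSPH1 (Entrez 10808, chromosome 13 from 31134973 to 31162388) encodes HSP110, which exchanges the nucleotide of HSP70. Its values were 33.91, 60.63 and 46.12 FPKM in control and 39.28, 40.83 and 19.86 FPKM in EFTUD2 libraries. The order of the libraries was that of HSPA8, with control replicate 2 on top, EFTUD2 replicate 3 at the bottom and the groups overlapping. Its log2 fold change was -0.51 (SE 0.32, 95% interval -1.27 to 0.25, adjusted p = 0.47), and -0.18 without EFTUD2 replicate 3. The ratio of HSPH1 to HSPA8 within a library was 0.097, 0.0756 and 0.0827 in control and 0.082, 0.0778 and 0.0872 in EFTUD2 libraries, so the wide spread of both genes was not seen in their ratio. The groups of this ratio overlapped (log2 difference -0.04, exact permutation test, two-sided p = 0.8, adjusted p = 0.8 over 6 ratios).

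HSP90AA1 and HSP90AB1 encode the stress-induced and the constitutive cytosolic HSP90. HSP90AA1 (Entrez 3320, chromosome 14 from 102080742 to 102139749) stood at 351.53, 566.86 and 435.61 FPKM in control and at 382.78, 404.61 and 204.46 FPKM in EFTUD2 libraries. It had the library pattern of HSPA8 and HSPH1, low in EFTUD2 replicate 3 and high in control replicate 2, with overlapping groups. Its log2 fold change was -0.48 (SE 0.30, 95% interval -1.20 to 0.24, adjusted p = 0.47), and -0.17 without EFTUD2 replicate 3. HSP90AB1 (Entrez 3326, chromosome 6 from 44246194 to 44253883) stood at 782.46, 1086.42 and 976.12 FPKM in control and at 946.95, 885.52 and 980.2 FPKM in EFTUD2 libraries. Here EFTUD2 replicate 3 was the highest of its group and inside the control range. The log2 fold change was -0.00 (SE 0.16, 95% interval -0.39 to 0.38, adjusted p = 0.99). The promoters of both genes hold 3-unit elements.

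The ratio of HSP90AA1 to HSP90AB1 was 0.449, 0.522 and 0.446 in control libraries and 0.404, 0.457 and 0.209 in EFTUD2 libraries. EFTUD2 replicate 3 was by far the lowest, replicate 1 lay just under the controls, and replicate 2 lay inside their range. The log2 difference was -0.48, and -0.13 without that library (exact permutation test, two-sided p = 0.3, adjusted p = 0.45 over 6 ratios). A ratio within a library is not changed by dividing the library by a constant, as in the median of ratios and the common sum, but quantile normalization can change it.

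HSPA1A and HSPA1B encode the stress-induced HSP70 proteins, which are nearly identical, and lie beside each other on chromosome 6, from 31815543 to 31817942 and from 31827738 to 31830254. HSPA1B (Entrez 3304) stood at 89.58, 166.36 and 152.32 FPKM in control and at 130.81, 144.5 and 237.01 FPKM in EFTUD2 libraries. HSPA1A (Entrez 3303) was listed far lower, at 7.25, 3.72 and 4.54 FPKM in control and at 3.77, 4.86 and 12.19 FPKM in EFTUD2 libraries. Both were highest in EFTUD2 replicate 3, at 1.72 and 2.83 times the mean of EFTUD2 replicates 1 and 2, while the groups overlapped. The log2 fold change of HSPA1B was 0.32 (SE 0.31, 95% interval -0.40 to 1.05, adjusted p = 0.61), and 0.06 without that library. For HSPA1A it was 0.26 (SE 0.40, 95% interval -0.70 to 1.22, adjusted p = 0.76), and -0.18 without it. With weights that let a deviating library count less, both were below 0, at -0.12 and -0.13.

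The split between HSPA1A and HSPA1B is uncertain. Of the 50-base stretches of the HSPA1A transcript in GENCODE release 29, 72.6% also occurred in that of HSPA1B, so the values depend on how shared fragments were assigned. The listed ratio of HSPA1B to HSPA1A ran from 12.4 in control replicate 1 to 44.7 in control replicate 2 and was 19.4 in EFTUD2 replicate 3. The sum of both genes, which does not depend on that split, was 96.8, 170 and 157 FPKM in control and 135, 149 and 249 FPKM in EFTUD2 libraries. EFTUD2 replicate 3 was the highest library in the sum as well. Set against HSPA8, the sum was 0.277, 0.212 and 0.281 of its level in control libraries and 0.281, 0.285 and 1.09 in EFTUD2 libraries. In EFTUD2 replicate 3 the stress-induced genes were thus listed above the constitutive one, and in the other 5 libraries below it. The log2 difference of this ratio was 0.80, and 0.15 without EFTUD2 replicate 3 (exact permutation test, two-sided p = 0.2, adjusted p = 0.45 over 6 ratios).

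**Figure D2:**
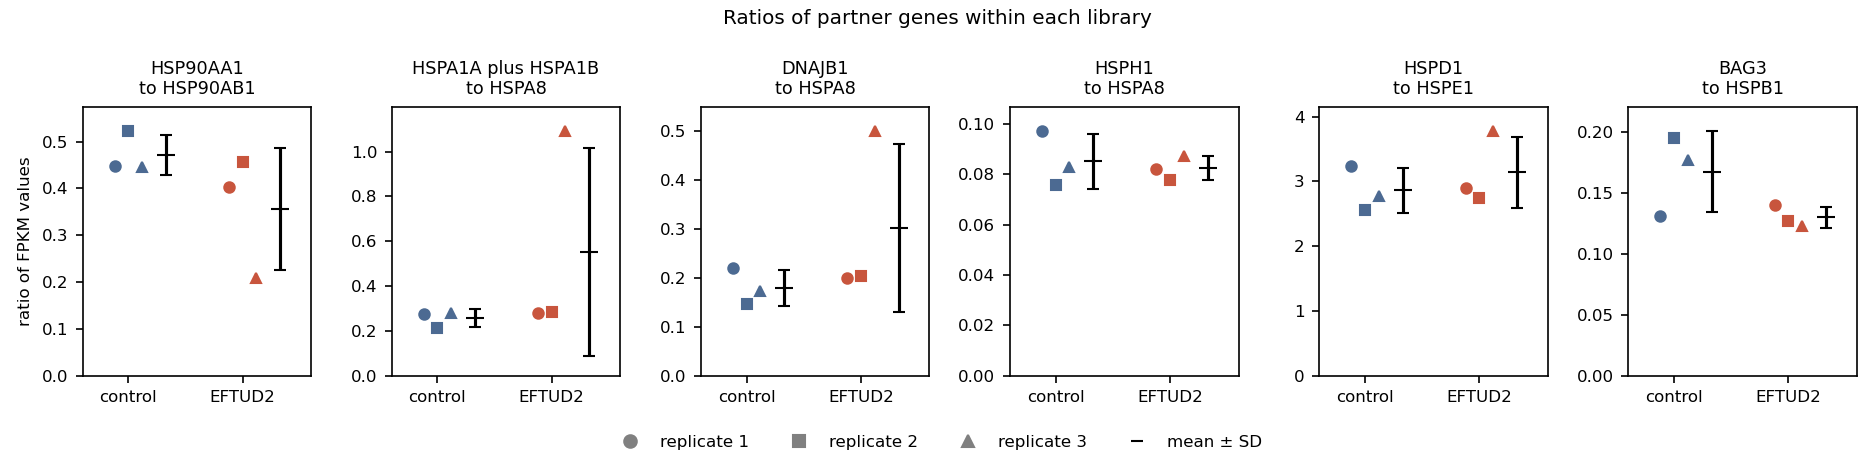
Ratios of FPKM values of partner genes within each library (y axis, from 0, own scale per ratio) in the 3 control and 3 EFTUD2 libraries (x axis), with the mean ± SD of each group. EFTUD2 replicate 3 stands apart for HSP90AA1 to HSP90AB1 (0.209), HSPA1A plus HSPA1B to HSPA8 (1.09) and DNAJB1 to HSPA8 (0.499), while HSPH1 to HSPA8 stays between 0.0756 and 0.097 in all 6 libraries.

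DNAJB1 (Entrez 3337, chromosome 19 from 14514769 to 14560391) encodes HSP40, the J-domain partner that starts the ATP cycle of HSP70. Its values were 77.02, 118.17 and 95.95 FPKM in control and 95.89, 107.07 and 113.63 FPKM in EFTUD2 libraries. EFTUD2 replicate 3 was the highest of its group but inside the control range. Its log2 fold change was 0.14 (SE 0.17, 95% interval -0.27 to 0.54, adjusted p = 0.69), and it was -0.02 without control replicate 1. The ratio of DNAJB1 to HSPA8 was 0.22, 0.147 and 0.172 in control and 0.2, 0.204 and 0.499 in EFTUD2 libraries. EFTUD2 replicate 3 was again apart, and the other EFTUD2 libraries lay inside the control range (log2 difference 0.62, and 0.19 without it, exact permutation test, two-sided p = 0.3, adjusted p = 0.45 over 6 ratios).

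BAG3 (Entrez 9531, chromosome 10 from 119651380 to 119677819), an exchange factor that links HSP70 to autophagy and to small heat shock proteins, came nearest to a difference between the groups. Its values were 16.56, 18.55 and 18.71 FPKM in control and 15.04, 16.58 and 11.86 FPKM in EFTUD2 libraries. All EFTUD2 libraries lay under all controls except replicate 2, which lay just above control replicate 1 and, after scaling to a common sum, under it. The log2 fold change was -0.30 (SE 0.14, 95% interval -0.64 to 0.04, adjusted p = 0.41, exact permutation p = 0.2), and -0.17 without EFTUD2 replicate 3. BAG3 was lower with EFTUD2 in every setting, from -0.40 to -0.16, and its adjusted p ran from 0.0688 to 0.685.

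HSPB1 (Entrez 3315, chromosome 7 from 76302673 to 76304292), the small heat shock protein HSP27, is a known partner of BAG3. Its values were 126.24, 95.03 and 105.83 FPKM in control and 107.23, 130.44 and 96.77 FPKM in EFTUD2 libraries. Both groups spanned nearly the same range, and the library order was unlike that of HSPA8. On the log2 scale the change was 0.03 (SE 0.16, 95% interval -0.35 to 0.41, adjusted p = 0.93), and -0.01 with the libraries scaled to a common sum. The ratio of BAG3 to HSPB1 was 0.131, 0.195 and 0.177 in control and 0.14, 0.127 and 0.123 in EFTUD2 libraries. It was low in control replicate 1 and in all EFTUD2 libraries (log2 difference -0.35, and -0.31 without EFTUD2 replicate 3, exact permutation test, two-sided p = 0.2, adjusted p = 0.45 over 6 ratios).

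HSPD1 (Entrez 3329, chromosome 2 from 197486584 to 197500274) encodes the mitochondrial chaperonin HSP60 and shares a promoter with its partner HSPE1. Its values were 595.23, 826.5 and 682.42 FPKM in control and 682.81, 664.19 and 603.5 FPKM in EFTUD2 libraries. Every EFTUD2 library lay inside the control range. The log2 fold change was -0.10 (SE 0.16, 95% interval -0.47 to 0.28, adjusted p = 0.76), and 0.03 under median-of-ratios scaling. HSPE1 stood at 183.87, 322.39 and 245.43 FPKM in control and at 235.65, 242.2 and 160.12 FPKM in EFTUD2 libraries. HSPE1 was lowest in EFTUD2 replicate 3, and HSPD1 was lowest in control replicate 1, with EFTUD2 replicate 3 close to it and lowest after scaling to a common sum. Under median-of-ratios scaling, neither gene was lowest in EFTUD2 replicate 3. The ratio of HSPD1 to HSPE1 was 3.24, 2.56 and 2.78 in control and 2.9, 2.74 and 3.77 in EFTUD2 libraries, highest in EFTUD2 replicate 3 (log2 difference 0.13, exact permutation test, two-sided p = 0.6, adjusted p = 0.72 over 6 ratios). Of the 50-base stretches of HSPD1, 25% occur in other transcripts, largely its pseudogenes, which adds uncertainty to its level. The share was 21.4% for HSP90AA1, 18.8% for HSP90AB1, 15.4% for HSPA8 and 11.4% for HSPB1, whose levels are uncertain for the same reason. It was 2.57% for DNAJB1 and 0% for HSPH1 and BAG3.

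**Figure D3:**
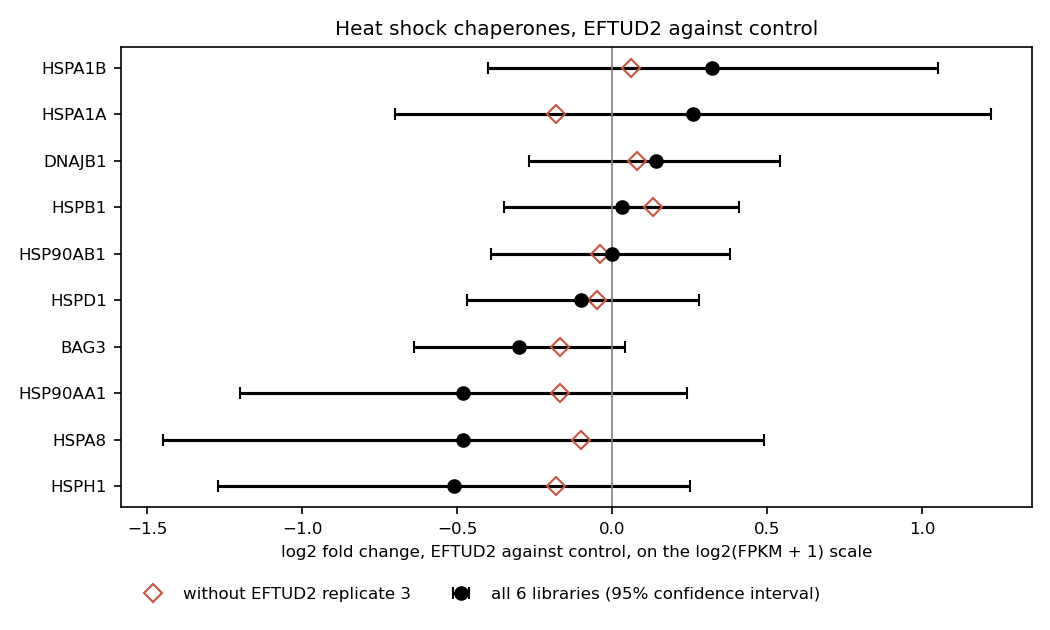
Log2 fold changes of the 10 chaperones, EFTUD2 against control, on the log2(FPKM + 1) scale (x axis), one row per gene. Filled points with bars give the fit to all 6 libraries with its 95% confidence interval, open diamonds the fit without EFTUD2 replicate 3. All 10 intervals include 0, and without that library the values lie between -0.18 and 0.13.

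Set side by side, the 10 chaperones were compared by the order of their libraries, without a test. EFTUD2 replicate 3 was the lowest of the 6 libraries for 4 of the 10 genes, HSPA8, HSP90AA1, HSPH1 and BAG3 (background 45.7% of the genes tested), and the highest for 2, HSPA1A and HSPA1B (background 20.5%). Neither share was far from the background. Relative to the mean of EFTUD2 replicates 1 and 2, that library held 0.454 of the HSPA8 level, 0.496 of HSPH1, 0.519 of HSP90AA1 and 0.75 of BAG3. Among the controls, 7 of the 10 genes were lowest in replicate 1 and highest in replicate 2, all but HSPA1A, HSPB1 and BAG3 (background 23.1%). Neither this order nor those of EFTUD2 replicate 3 was planned before the values were seen, so these counts describe the data and test nothing. Under median-of-ratios scaling, counted after the data were seen, EFTUD2 replicate 3 was lowest for the same 4 genes and highest for 4, with HSP90AB1 and DNAJB1 added, while 32.4% and 33% of all genes had these orders. With a common sum it was lowest for 6, with HSPB1 and HSPD1 added, and highest for 2, beside 49.9% and 17.8% of all genes. The control order was again found for 7 of the 10 genes under both scalings, beside 25.9% and 20.2% of all genes. Genes that share library-wide shifts are not independent of each other.

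The low values of control replicate 1 bear on the comparison. Without it, the groups of HSPA8, HSP90AA1, HSPH1 and BAG3 no longer overlapped, all 4 lower with EFTUD2, beside 26.6% of the genes tested, and none of the 10 was called. This library was singled out after it was seen to be the lowest control for these 4 genes, which favors that outcome. The 26.6% covers genes not chosen in this way, so the count describes the data and tests nothing. The 10 genes together took 0.601%, 0.899% and 0.739% of all FPKM in control replicates 1 to 3 and 0.693%, 0.689% and 0.577% in EFTUD2 replicates 1 to 3. Their summed share was highest in control replicate 2 and lowest in EFTUD2 replicate 3, with overlapping groups.

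The other chaperone genes of the pathway were followed from lists that leave out the 10 genes, and in limma 0 of their 100 tested genes had an adjusted p under 0.05, and 8 an unadjusted p under 0.05, 2 of them higher and 6 lower, beside 12.3% of all genes tested. Among the heat shock factors, HSF1, the activator of the heat shock response, was lower in all EFTUD2 libraries. It stood at 45.67, 40.23 and 41.87 FPKM in control and at 32.12, 34.42 and 30.92 FPKM in EFTUD2 libraries. These groups did not overlap, and EFTUD2 replicate 3 lay close to the other EFTUD2 libraries (log2 fold change -0.38, SE 0.10, adjusted p = 0.40). It was -0.35 without EFTUD2 replicate 3, and its adjusted p ran from 0.0198 with weights for deviating libraries to 0.681 over the settings. HSF2 stood at 11.08, 8.92 and 7.93 FPKM in control and at 7.77, 7.37 and 8.55 FPKM in EFTUD2 libraries, with overlapping groups.

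The HSP90 co-chaperones, which load clients and time the ATP cycle of HSP90, had mostly negative log2 fold changes, none of them called. Of 16 tested, 14 had a log2 fold change below 0, 7 had EFTUD2 libraries all under the controls, and the median was -0.28, beside 62.7%, 19.4% and -0.07 for all genes tested. Of the genes that averaged 1 FPKM or more, as all 16 did, 68.3% were below 0, with a median of -0.12. The median of the 16 was -0.14 without EFTUD2 replicate 3. Under the median of ratios 13 of the 16 were below 0 with a median of -0.16, beside 48.9% and 0.01 for all genes. EFTUD2 replicate 3 was the lowest library for 14 of the 16 (12 with the median of ratios), beside 45.7% of all genes (32.4%). Among controls, 13 of the 16 were lowest in replicate 1 and highest in replicate 2 (11 with a common sum), beside 23.1% of all genes (20.2%), and HSP90AA1 and HSP90AB1 had the same order. SUGT1, which brings HSP90 to immune receptors and kinetochores, stood at 19.7, 24.58 and 22.72 FPKM in control and at 18.32, 15.68 and 10.31 FPKM in EFTUD2 libraries, without overlap (log2 fold change -0.59, SE 0.21, adjusted p = 0.40). CHORDC1 stood at 15.85, 24.21 and 18.06 FPKM in control and at 16.09, 15.02 and 9.93 FPKM in EFTUD2 libraries, with a small overlap. At the other end, FKBP8 had a log2 fold change of 0.21 and CDC37L1 of 0.17, and both were highest in EFTUD2 replicate 3.

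The partners of HSP70 showed a like mix. Of 13 J-domain co-chaperones, 11 had a log2 fold change below 0 (median -0.20, or -0.09 without EFTUD2 replicate 3). Of 8 exchange and adaptor factors 7 did (median -0.15, or -0.05), beside 62.7% of all genes and 68.3% of those that averaged 1 FPKM or more. Under the median of ratios these counts were 9 of 13 and 5 of 8, with medians of -0.08 and -0.04, beside 48.9% of all genes. DNAJA1, a cytosolic J-domain partner, stood at 93.95, 127.04 and 104.52 FPKM in control and at 96.21, 108.46 and 47.47 FPKM in EFTUD2 libraries, and was low only in EFTUD2 replicate 3. DNAJA2 showed the opposite, at 46.09, 43.79 and 55.67 FPKM in EFTUD2 libraries beside 46.57 to 50.39 FPKM in controls. BAG2, an exchange factor that restrains the ligase STUB1, had the lowest log2 fold change of its list at -0.74 (SE 0.34, adjusted p = 0.41), with 8.68 FPKM in EFTUD2 replicate 3 and no overlap between the groups. ST13, which holds HSP70 in its client-bound state, had 0.15. The 9 other HSP70 and HSP110 genes had a median of 0.06. The 6 of them that averaged 1 FPKM or more had a median of -0.26, from HSPA4L at -0.34 to HSPA12A at 0.24, beside -0.12 for all genes at that level.

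**Figure D4:**
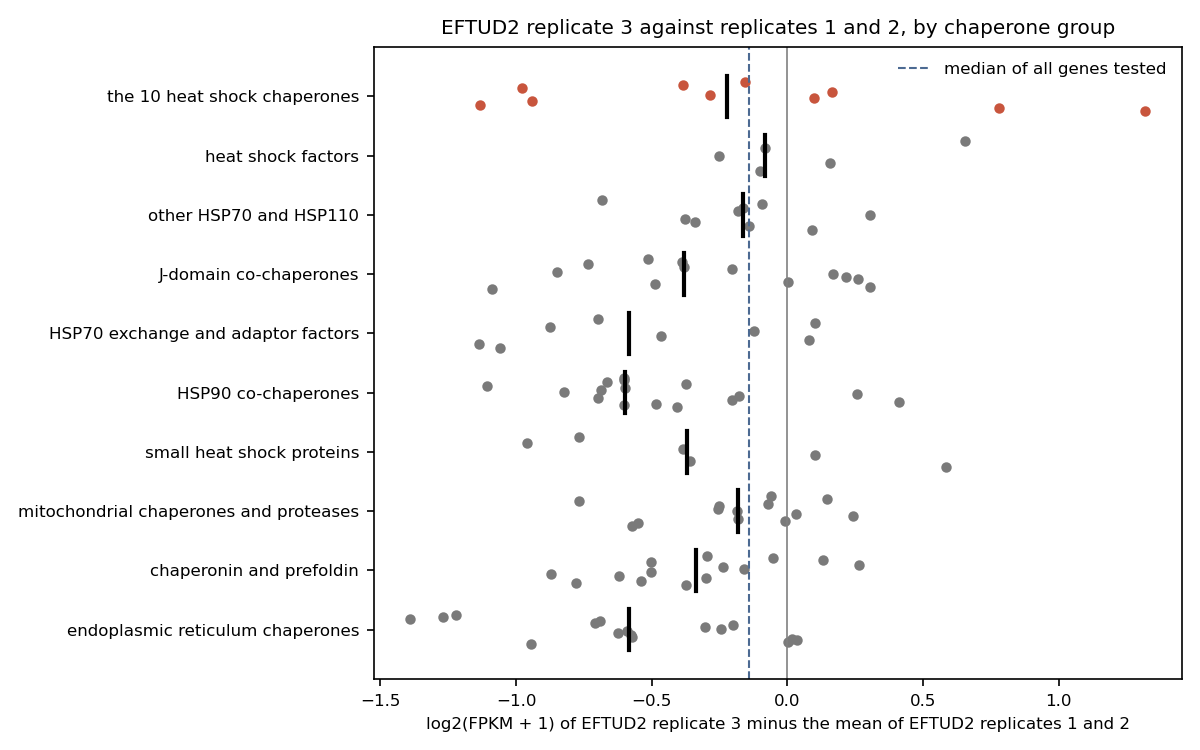
Log2(FPKM + 1) of EFTUD2 replicate 3 minus the mean of EFTUD2 replicates 1 and 2 (x axis) for each tested gene of the 10 chaperone groups (y axis), with a bar at the median of each group and a dashed line at the median of all genes tested (-0.14). The 10 heat shock chaperones have a median of -0.22 and points on both sides of 0, and the HSP90 co-chaperones have a median of -0.60.

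The folding machines outside the HSP70 and HSP90 cycles were compared in the same way. Of 14 chaperonin and prefoldin subunits, which fold actin and tubulin, 13 had a log2 fold change below 0 (median -0.25, or -0.11 without EFTUD2 replicate 3), beside 62.7% of all genes. For genes that averaged 1 FPKM or more, as all 14 did, the share was 68.3% and the median -0.12. Under the median of ratios 11 of the 14 were below 0 with a median of -0.13, beside 48.9% of all genes. PFDN1 stood at 51.9, 52.26 and 48.92 FPKM in control and at 38.83, 41.68 and 34 FPKM in EFTUD2 libraries, without overlap (log2 fold change -0.41, SE 0.11, adjusted p = 0.40). CCT2 had -0.42 and was lowest in EFTUD2 replicate 3. Of 13 other mitochondrial chaperones and proteases, 10 were below 0 with a median of -0.07. The median was -0.07 for all genes tested and -0.12 for those that averaged 1 FPKM or more, as all 13 did. Under the median of ratios 5 of the 13 were below 0 with a median of 0.04. HSPA9, the mitochondrial HSP70, stood at 100.95, 137.39 and 116.55 FPKM in control and at 125.43, 131.75 and 87.51 FPKM in EFTUD2 libraries, whereas TRAP1, the mitochondrial HSP90, had 0.14 with all EFTUD2 libraries above the controls. The 6 small heat shock proteins tested had a median of 0.02, and the 3 that averaged 1 FPKM or more had -0.03, beside -0.12 for all genes at that level.

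In the endoplasmic reticulum, where chaperones answer to the unfolded protein response rather than to HSF1, 9 of 16 genes had a log2 fold change above 0 and 7 below 0. Of all genes tested, 62.7% were below 0. The median of the 16 was 0.02, or 0.21 without EFTUD2 replicate 3 and -0.03 with a common sum, beside -0.07, -0.04 and -0.10 for all genes. Under the median of ratios 6 of the 16 were below 0 with a median of 0.14, beside 48.9% and 0.01 for all genes. HSP90B1, the HSP90 of this compartment, stood at 214.98, 273.94 and 305.01 FPKM in control and at 365.93, 331.09 and 348.34 FPKM in EFTUD2 libraries. Its groups did not overlap (log2 fold change 0.41, SE 0.15, adjusted p = 0.40), unlike those of the cytosolic HSP90 genes. The difference between HSP90B1 and the cytosolic genes was not tested. SDF2L1 stood at 33.41, 46.61 and 52.29 FPKM in control and at 38.06, 49.8 and 16 FPKM in EFTUD2 libraries, low only in EFTUD2 replicate 3.

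Marker genes also differed between the libraries that set the chaperone pattern. All 11 hepatocyte markers were present, with sums of 6952 to 10669 FPKM in control and 9300 to 14127 FPKM in EFTUD2 libraries. ALB stood at 3027.14, 1772.89 and 2372.65 FPKM in control and at 2287.22, 2215.21 and 4731.59 FPKM in EFTUD2 libraries, so control replicate 1 and EFTUD2 replicate 3, where HSPA8 was lowest, had the highest ALB. The 5 genes VIM, KRT7, KRT17, LDHB and CD44, a list chosen on these samples, summed to 1.97 to 3.01 FPKM in control libraries and to 144, 317 and 16.3 FPKM in EFTUD2 replicates 1 to 3. EFTUD2 replicate 3 thus had the lowest sum of its group. Of 6 macrophage markers, TYROBP was listed at 0 in all libraries and PTPRC, CSF1R and CYBB at no more than 0.12 FPKM, while the sums, mostly CD68, were 17.6 to 31.5 FPKM in control and 26.5 to 35.6 FPKM in EFTUD2 libraries. The 5 endothelial markers summed to 1.09 to 1.53 and 1.29 to 1.6 FPKM, and the 7 fibroblast markers to 0.51 to 1.58 and 2.33 to 4.82 FPKM. The part of these differences in the chaperone values was not tested.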

How the data were processed

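RNA of 3 control and 3 EFTUD2 libraries was extracted with TRIzol, poly-A selected and read on a BGISEQ-500 instrument. The authors deposited FPKM values per gene and library, rounded to 2 decimals. The submitters' processing notes name HISAT2, Bowtie2, RSEM, DESeq2 and hg38, with no versions or roles, and the annotation is not given in the sources used here. Counts were not used here, so depth is unknown. Groups were taken from the labels.

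Each deposited FPKM value was taken to log2(FPKM + 1), which understates changes of low genes. Genes that averaged 0.1 FPKM or more were compared with limma-trend (version 3.58.1, R 4.3.3), with Benjamini-Hochberg adjustment over all 17222 genes and a threshold of 0.05. Values of -0.00 are negative values that round to 0. Ratios were compared by exact two-sided permutation tests of their log2 values, adjusted over 6 ratios. Further steps used Python 3.11.15, pandas 2.3.3, scipy 1.17.1 and matplotlib 3.10.9.

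The members and lists were chosen with earlier results of these data known. The genes named were the 10 chaperones, EFTUD2, the 2 highest and 2 lowest log2 fold changes of each other chaperone list among genes that averaged 1 FPKM or more, HSF1, HSF2, HSPE1, HSPA9, any gene called, and named markers. For a check of the fit, a log2 change of 2 was simulated in 200 of 17061 genes, of which limma recovered 91%, with 10 false calls. A simulation without changes gave 0 calls. Both simulations drew the noise of each gene independently, with the same SD in all 6 libraries. They held no deviating library and no shifts shared by genes, so they do not measure false calls in these data. Log2 fold changes of the 10 chaperones were far smaller than 2, from -0.51 to 0.32, and EFTUD2 at 1.16 was not called in the main fit. The recovery of 91% therefore does not apply to changes of the size seen in the chaperones, for which recovery was not tested. Alternatives were pseudocounts of 0.1 and 0.01, a minimum mean of 1 FPKM or none, scaling by median of ratios, quantiles or a common sum, robust empirical Bayes, array weights estimated gene by gene, the replicate number as a block, and each library left out in turn. Shared 50-base stretches were counted in the longest coding transcripts of GENCODE release 29, since the read length is not given in the sources used here.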

Additional observations from a re-analysis of the deposited data

How the results depend on the processing

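Under all 16 settings, 0 of the 10 chaperones were called, and HSPA8, HSP90AA1, HSPH1 and BAG3 had log2 fold changes below 0. HSP90AB1 ran from -0.26 to 0.12, and the median of the 10 was 0.07 with the median of ratios and -0.21 with quantiles. With array weights, all genes called were 1355, 725 higher and 630 lower, among them HSF1 (1 heat shock factor), 1 small heat shock protein, HSPB7, and 2 chaperonin or prefoldin genes, PFDN1 and PFDN2. That total is out of 17222 genes tested, and the 4 named genes are out of 100 tested on the other chaperone lists. The share called was thus smaller on these lists than over all genes. HSPB7 stood near 0, at 0.04, 0.01 and 0.04 FPKM in control and at 0.26, 0.46 and 0.04 FPKM in EFTUD2 libraries. The groups of HSPB7 and PFDN2 overlapped, and those of HSF1 and PFDN1 did not. Array weights gave EFTUD2 a log2 fold change of 1.15 (adjusted p = 0.00179). Its adjusted p was 0.13 in the main fit and up to 0.53 over the settings. Leaving out 1 library gave 0 to 167 genes called, with 167 (153 higher, 14 lower) without EFTUD2 replicate 3, and an EFTUD2 log2 fold change of 1.07 to 1.26. The cause of these shifts was not tested.

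Some log2 values changed sign. Median of ratios gave HSPD1 0.03, DNAJB4 0.10, BAG6 0.08, HSPB8 0.06, CRYAA 0.07, CCT5 0.04 and HSPA9 0.07, quantiles gave DNAJB4 0.11 and CRYAA 0.06, and a common sum gave HSPB1 -0.01 and DNAJA2 -0.04. Array weights gave HSPA1A -0.13, HSPA1B -0.12, HSF2BP -0.08, DNAJA2 -0.05, HSPB8 0.13, CCT5 0.06 and HSPA9 0.08. With 1 library left out in turn, the ranges were -0.02 to 0.29 for DNAJB1, -0.18 to 0.55 for HSPA1A, -0.09 to 0.14 for HSPB1, -0.21 to 0.03 for HSPD1, -0.10 to 0.07 for DNAJA2, -0.09 to 0.06 for DNAJB4, -0.36 to 0.31 for HSPB8, -0.41 to 0.10 for HSPB11, -0.22 to 0.17 for CRYAA, -0.24 to 0.12 for CCT5, -0.16 to 0.13 for HSPA9, -0.12 to 0.21 for HSF2BP, -0.78 to 0.01 for SDF2L1, -0.63 to 0.08 for CRELD2, -0.12 to 0.06 for the ratio of HSPH1 to HSPA8 and -0.01 to 0.22 for that of HSPD1 to HSPE1. With 1 mismatch allowed in the 3-unit element, 8 of the 10 promoters held it, beside 7.6% of genes.

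Deviations from the group mean correlated over genes at -0.299, 0.353 and -0.0936 between replicates of the same number, 1 to 3. Only those numbered 2 thus deviated together, and control replicate 1 and EFTUD2 replicate 3 did so at 0.382. Deviations within a group sum to 0, so these correlations are not independent. The numbers were not taken to pair libraries. With the replicate number as a block, limma called 0 genes, with a smallest adjusted p of 0.273, the median of the 10 chaperones was -0.05, and no call changed.

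Depth is unknown, which limits the lowest values, and 3 libraries a group cannot reach an exact p under 0.1. The 95% intervals of HSPA8, HSP90AA1 and HSPH1 reach below -1 on the log2 scale and those of HSPA1A and HSPA1B above 1, so they do not exclude a change of that size in that direction.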
